A study of Homo sapiens and Homo sapiens
Mus musculus and Mus musculus with 9 samples.

Results

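The genes described here encode assembly factors of the respiratory chain, proteins that help to build a complex but do not stay in it. They were chosen by symbol from a list of 46 genes, grouped by the complex they help to assemble, and the rule uses no measured value. All 46 were found, with 1 row each, among the 41713 genes of the deposited table. There were 13 factors of complex I, 4 of complex II, 6 of complex III, 20 of complex IV and 3 of complex V (ATP synthase).

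The study sequenced RNA of C4-2B, an established human prostate cancer cell line, of MC3T3-E1, a mouse osteoblast line, and of both grown mixed at 1 C4-2B cell to 30 MC3T3-E1 cells, to profile a dormant state of the cancer cells. Each of the 3 groups had 3 libraries, 9 in all. The cells are labelled wild type, were kept in alpha-MEM with serum, and the labels name no agent in any group. RNA of the mixed culture was extracted from both species together. Human reads were therefore separated by software in 3 ways, called Xenome, XenofilteR and Kallisto, and each gave its own mean count per human gene over the 6 libraries of C4-2B alone and of the co-culture. These means are the only values used here. They pool both groups, so they describe how strongly each factor was expressed in the data set and how it was counted, and they hold no comparison of co-culture with C4-2B alone.

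The respiratory chain sits in the inner mitochondrial membrane. Complexes I to IV pass electrons to oxygen and, complex II apart, pump protons, and ATP synthase uses the proton gradient to make ATP. Most complexes combine subunits encoded in the mitochondrial genome with subunits imported from the cytosol, and assembly factors insert cofactors such as heme, copper, flavin and iron-sulfur clusters, stabilise intermediates and join modules. Loss of single factors is a known cause of inherited mitochondrial disease.

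In several factors part of the transcript is also part of another gene. The 7 shown here had the highest ratios of the Kallisto to the Xenome mean, given below. The following sequences are coding sequence of the MANE Select transcript (the agreed reference transcript of a gene) in GRCh38, spliced, with the bases that lie in an exon of the other gene in capitals. The first 4 share with a gene on the same strand. They are COX16 with SYNJ2BP-COX16, PET100 with ENSG00000268400, SDHAF2 with ENSG00000256591 and PET117 with KAT14. The next is COX15 with ENSG00000285932, also on the same strand. COX20 with HNRNPU and SCO2 with NCAPH2 lie on opposite strands.
COX16: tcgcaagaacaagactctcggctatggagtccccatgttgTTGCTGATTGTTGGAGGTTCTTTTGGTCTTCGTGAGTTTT
PET100: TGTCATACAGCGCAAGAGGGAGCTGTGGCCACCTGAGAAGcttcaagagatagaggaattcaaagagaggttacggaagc
SDHAF2: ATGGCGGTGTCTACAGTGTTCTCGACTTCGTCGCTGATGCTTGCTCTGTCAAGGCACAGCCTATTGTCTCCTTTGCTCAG
PET117: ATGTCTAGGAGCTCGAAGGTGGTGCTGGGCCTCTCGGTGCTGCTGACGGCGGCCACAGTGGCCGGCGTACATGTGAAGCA
COX15: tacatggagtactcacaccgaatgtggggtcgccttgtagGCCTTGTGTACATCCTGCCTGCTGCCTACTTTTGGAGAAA
COX20: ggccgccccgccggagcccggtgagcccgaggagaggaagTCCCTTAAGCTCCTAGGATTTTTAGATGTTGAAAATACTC
SCO2: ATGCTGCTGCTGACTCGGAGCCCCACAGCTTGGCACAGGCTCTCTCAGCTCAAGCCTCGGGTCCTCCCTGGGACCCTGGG
The COX16 stretch runs from chr14:70342690 to 70359558 on the minus strand and crosses a splice junction from unshared to shared bases. This is 1 of 2 borders, in either direction, in its coding sequence, of which 80.2% is shared. The PET100 stretch (chr19:7630644-7631512, plus strand) crosses the junction where sharing ends, with 63.0% of coding bases shared. The stretches of SDHAF2 (chr11:61430147-61437668, plus), PET117 (chr20:18137956-18138035, plus) and SCO2 (chr22:50524332-50524411, minus) start at the first coding base, and all coding bases of these 3 genes are shared. The COX15 stretch lies at chr10:99727032-99727111 on the minus strand, with 82.8% of coding bases shared, and the COX20 stretch at chr1:244835717-244841983 on the plus strand, with 88.1%.

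Every factor was detected in each pipeline. With Xenome the means ran from 105 (SCO2) to 5549 (LYRM7), with a median of 1593. Counting error, taken as Poisson and equal in level over the libraries, was between 0.975% and 7.09% of the mean, with a median of 1.82%. It covers counting only. The spread between libraries is not given, since the table has no value per library and its standard errors, which belong to the comparison of groups, were not used. Fewer cancer cells and less RNA per cell cannot be told apart in bulk RNA. Of the 9 prostate markers on the list used to check the label, 8 are listed, with Xenome means from 4603 to 51038. Of the 10 osteoblast markers, 8 had Xenome means under 50, while COL1A1 had 3384 and RUNX2 411. COL1A2, at 45.0 with Xenome, had 264 with XenofilteR and 222 with Kallisto.

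Levels of different genes were compared as mean count per kb of the MANE Select transcript. The median of the 46 factors was 907 per kb, above the median of 458 per kb over 11529 protein-coding genes with a mean of at least 50, and 29 factors lay above that median. The range among factors was 61.0-fold, from 96.8 ± 5.53 per kb (counting SE) for COX16 to 5902 ± 85.5 for COX17. Of the 45 neighbouring pairs in the order of levels, 19 differed by less than 1.96 times their joint counting SE. Counting error alone thus leaves part of the order open. This SE leaves out the spread between libraries, so the order of the other pairs is not shown to be fixed either. The order also depends on the length used. Per kb of coding sequence LYRM7 was the highest factor (17785) and SCO2 the lowest (132), and per kb of all annotated exons COA4 (2085) and UQCC1 (65.4). The ranks that follow hold for the MANE Select length.

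**Figure D1:**
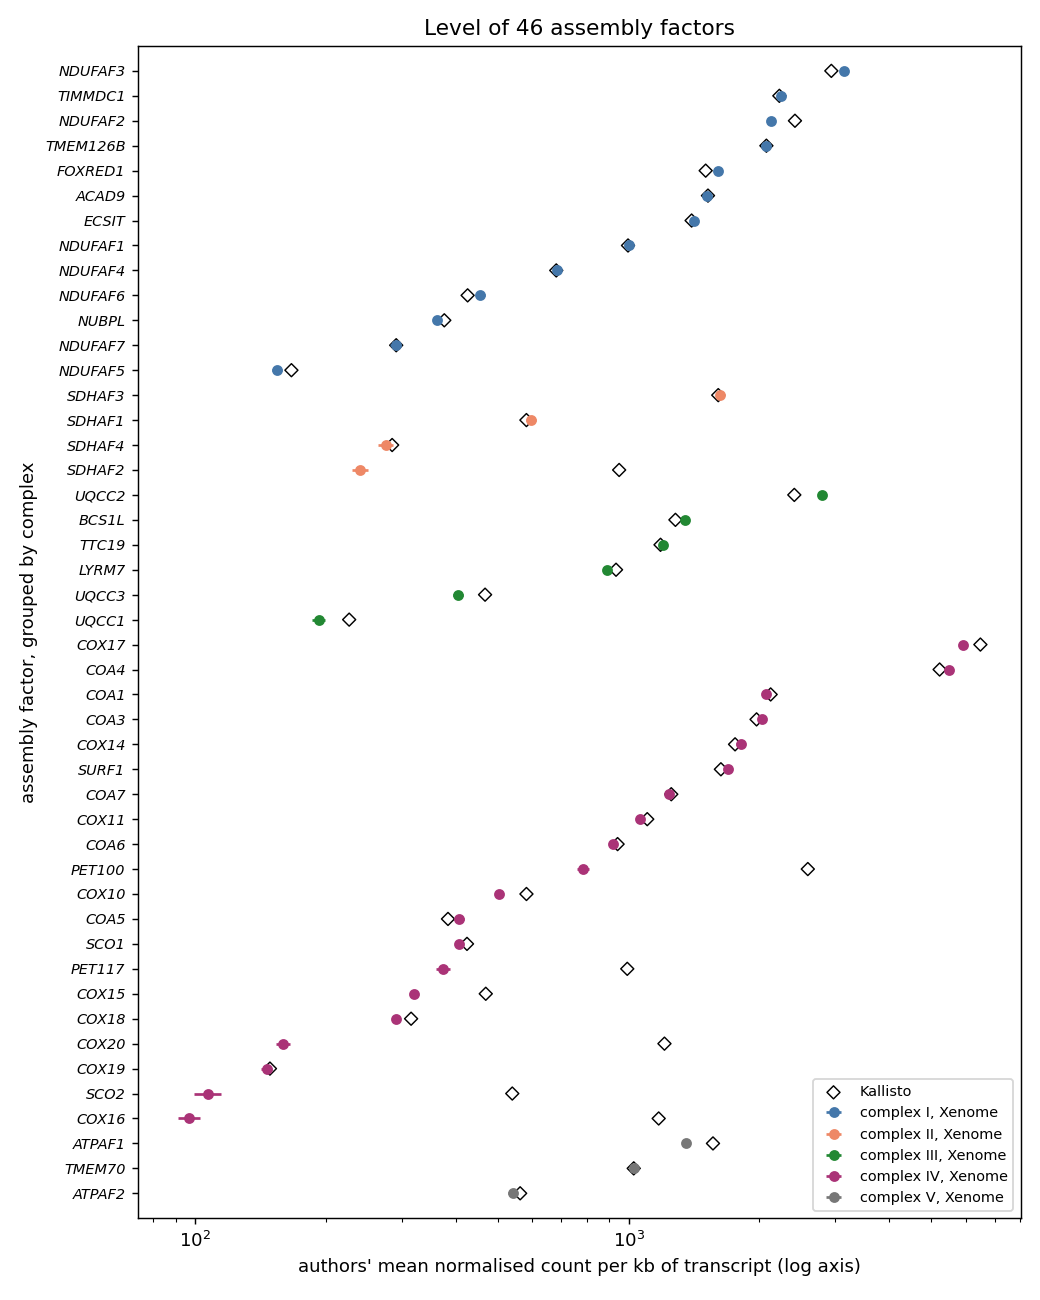
Authors' mean count per kb of transcript on a log axis for the 46 assembly factors, ordered within each complex. Filled points are Xenome with counting SE, open diamonds are Kallisto. Most pairs lie close together, while COX16, COX20, SCO2, SDHAF2, PET100 and PET117 have Kallisto values far to the right.

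The complex I factors had a median of 1414 per kb with Xenome (range 154 to 3140), the highest of the 5 groups by this length. Per kb of coding sequence complex III led (3003 against 1874), and per kb of all annotated exons complex V (702 against 370). NDUFAF3, which acts with NDUFAF4 on the arm that binds ubiquinone, was the highest at 3140 ± 42.9 per kb (TIMMDC1 by both other lengths), and NDUFAF4 stood at 683 ± 12.2. The membrane arm is built with the MCIA complex. Its members spanned a narrower range than NDUFAF3 and NDUFAF4 by this length, but a wider one by both other lengths. TIMMDC1 had 2254 ± 22.4 per kb, TMEM126B 2075 ± 32.8, ACAD9 1518 ± 18.1, ECSIT 1414 ± 21.3 and NDUFAF1 1002 ± 18.7. NDUFAF2, a late-acting chaperone, had 2127 ± 42.1 per kb and FOXRED1, an oxidoreductase-like factor, 1607 ± 20.8. NDUFAF6, NUBPL, NDUFAF7 and NDUFAF5 were the lowest of the group. NUBPL, which delivers iron-sulfur clusters, had 361 ± 7.92 per kb, the protein arginine methyltransferase NDUFAF7 had 290 ± 8.37 and NDUFAF5, an arginine hydroxylase, had 154 ± 3.87. NDUFAF6 had 455 ± 11.6 per kb.

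The 4 complex II factors had a median of 436 per kb with Xenome. SDHAF3, which helps the iron-sulfur subunit to mature, was the highest at 1626 ± 30.0 per kb, and SDHAF1, with a like role, had 596 ± 16.7. SDHAF4, which binds the flavinated SDHA subunit, had 275 ± 11.1 per kb. SDHAF2, which promotes attachment of the flavin, was the lowest at 240 ± 10.3 with Xenome. With Kallisto it stood at 951 per kb, second in the group.

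For complex III the median was 1048 per kb. UQCC2 and UQCC1 act together on newly made cytochrome b, yet UQCC2 was the highest of the 6 at 2798 ± 33.9 per kb (LYRM7 by both other lengths) and UQCC1 the lowest at 192 ± 6.69. UQCC3, which acts on the same early intermediate, had 403 ± 10.5 per kb. Of the factors for the Rieske iron-sulfur protein, BCS1L, which moves it across the membrane, had 1350 ± 22.3 per kb, its chaperone LYRM7 had 892 ± 8.70, and TTC19, which helps to clear its fragments, had 1203 ± 14.4.

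The 20 complex IV factors had the highest and the lowest member of the whole set by this length, and a median of 645 per kb with Xenome (1139 with Kallisto). Among the copper factors, the chaperone COX17 led at 5902 ± 85.5 per kb. COX11, which metallates the COX1 subunit, had 1061 ± 13.3, COA6 had 922 ± 16.7, SCO1 had 405 ± 4.72 and COX19 146 ± 3.99. SCO2, the partner of SCO1 in copper delivery to COX2, had 107 ± 7.57 per kb, and COX16, which also acts on COX2, had 96.8 ± 5.53. The heme A enzymes stood at 502 ± 9.56 per kb (COX10, heme O synthase) and 320 ± 5.79 (COX15, heme A synthase). COA1, COA3 and COX14 act on newly made COX1, and SURF1 is an early factor of the same complex. COA1 stood at 2079 ± 34.9 per kb, COA3 at 2028 ± 37.0, COX14 at 1817 ± 44.5 and SURF1 at 1695 ± 28.6. The COX2 factors COX18, an insertase, and COX20, a chaperone, had 290 ± 4.73 and 159 ± 6.05. COA4 was second of all factors at 5504 ± 59.6 per kb. COA7 had 1238 ± 12.8, PET100 787 ± 25.0, COA5 407 ± 11.0 and PET117 373 ± 13.1. These are Xenome levels, and 5 of them were far higher with Kallisto. There PET100 had 2593 per kb, COX20 1210, COX16 1174, PET117 993 and SCO2 539.

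The 3 factors of ATP synthase spanned 2.51-fold. ATPAF1, a chaperone of the beta subunit, had 1356 ± 13.3 per kb, TMEM70, which acts on the ring of c subunits, had 1030 ± 16.4, and ATPAF2, a chaperone of the alpha subunit, had 540 ± 13.5.

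The nuclear genes for the subunits themselves had higher levels per kb of the MANE Select transcript. Over 78 subunit genes the median was 4783 per kb, 5.27-fold that of the factors. With Xenome 2 of 46 factors, COX17 and COA4, exceeded it, and with Kallisto COX17 alone exceeded the subunit median of 5420 per kb. The gap between the medians was 2.36-fold for complex I, 7.96-fold for complex II, 3.23-fold for complex III, 14.7-fold for complex IV and 6.61-fold for complex V. With Kallisto the corresponding values were 2.93, 5.43, 4.33, 8.33 and 7.70, so complex IV had the widest gap and complex I the narrowest in both. Subunit levels by the other lengths were not calculated, so the gaps and their order are known for the MANE Select length only. These are descriptions of medians over genes, which are not replicates.

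**Figure D2:**
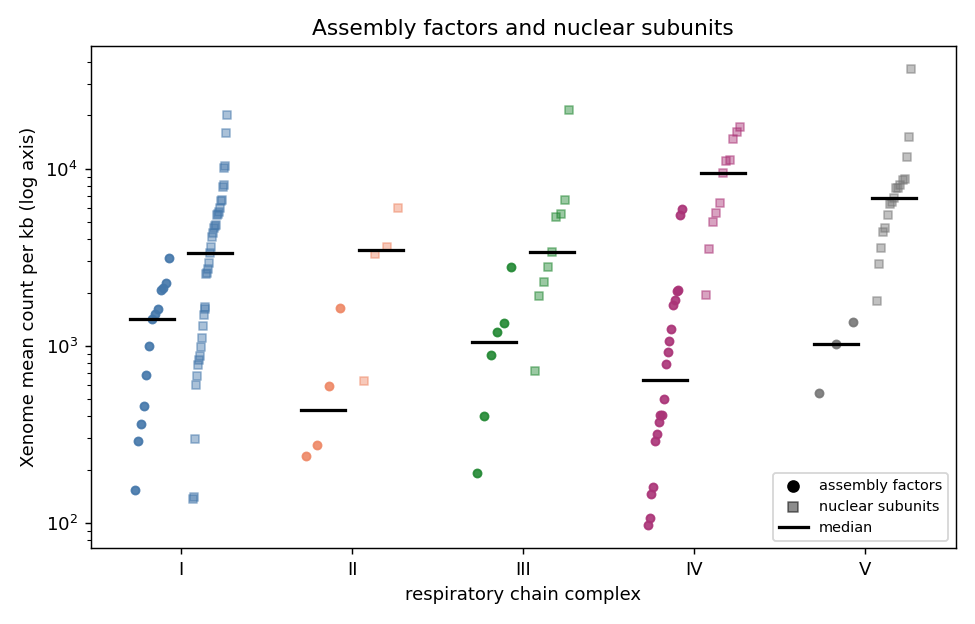
Xenome mean count per kb on a log axis for the assembly factors (circles) and the nuclear subunit genes (squares) of each complex, with the median as a bar. In all 5 complexes the median of the factors, from 436 to 1414 per kb, lies under that of the subunits.

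The 3 pipelines gave nearly the same means for most factors. XenofilteR and Xenome lay within 1.05 times of each other for 42 of 46 factors, where 6.76% of 14147 genes lay outside. The 4 factors outside were ATPAF1 (5518 with Xenome, 6406 with XenofilteR), COX20 (366 and 394), UQCC1 (436 and 460) and NDUFAF2 (1344 and 1269). The pseudogene NDUFAF2P1 had 66.5 with Xenome and 136 with XenofilteR, the opposite order to NDUFAF2, and holds 41.7% of the 50-base sequences of the NDUFAF2 transcript. Its part in the result was not tested. Exact 50-base matches of the factors to mouse transcripts were few. No 50-base sequence of 37 factors occurs in a mouse transcript, and the largest share was 2.32% (BCS1L). ATPAF1 had 0.473%. The search took exact matches only, so it does not measure likeness with mismatches. The part of mouse sequence in the differences between pipelines was not tested.

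Kallisto and Xenome differed more. In 6 of 46 factors (13.0%) the Kallisto mean exceeded the Xenome mean over 1.5-fold, against 9.74% of 11670 genes with a Xenome mean of at least 50. In no factor was Xenome the higher by that much, against 1.08% of genes. The share of factors is thus near the background, and 33 of 46 factors lay within 1.1-fold. What the 6 shared is described next. COX16 had means of 162 with Xenome, 167 with XenofilteR and 1959 with Kallisto, a ratio of Kallisto to Xenome of 12.1. For COX20 the means were 366, 394 and 2777 (ratio 7.60). For SCO2 they were 105, 107 and 530 (5.05).

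The other 3 differed less. SDHAF2 had means of 284, 282 and 1128 (3.97), PET100 of 522, 526 and 1719 (3.30), and PET117 of 430, 430 and 1143 (2.66). In all 6 the Kallisto mean was far above the other two. XenofilteR lay within 1.05 times of Xenome in 5 of them, COX20 being the exception. Just inside the threshold lay COX15 at 1.46 (1607, 1609 and 2354), and the other 39 factors had ratios from 0.862 (UQCC2) to 1.18 (UQCC1).

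**Figure D3:**
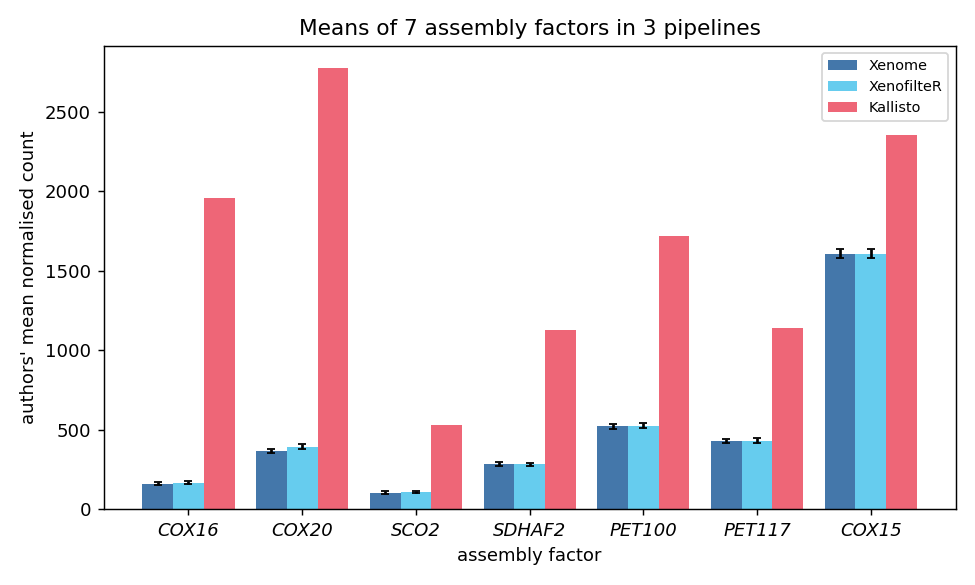
Authors' mean count in each pipeline for the 6 factors past 1.5-fold and for COX15, just inside it. Bars for Xenome and XenofilteR carry the counting SE, and Kallisto has none. The Kallisto bar is the tallest for each gene, from 1.46 times (COX15) to 12.1 times (COX16) the Xenome bar.

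The 6 were among the 7 factors whose sequence is most shared with other genes. The share of 50-base sequences of the transcript, the length of a read, that occur in another human gene on either strand was 95.4% for COX20, 86.6% for SCO2, 77.5% for PET117, 55.9% for SDHAF2, 45.6% for PET100 and 32.5% for COX16. COX15 had 26.6%. There were exceptions among the factors. NDUFAF2, with 41.7%, had a ratio of 1.14, and TIMMDC1, with 32.1% shared with CD80 on the opposite strand, had 0.989. CD80 had a Xenome mean of 1.60 itself.

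Over all genes a high ratio was more frequent where more exon bases were shared on the same strand. Among 9569 genes with no such bases, 5.95% had a Kallisto mean over 1.5-fold the Xenome mean. The share was 30.9% of 460 genes with 10 to 25% of exon bases shared, and 70.5% of 264 genes with 25 to 50%. Of the factors, the 4 with over 25% shared (PET117 78.3%, SDHAF2 44.8%, COX16 37.8%, SCO2 26.1%) were all past 1.5-fold. Of the 6 with 10 to 25%, PET100 alone was, while COX14, COX15, COX17, COX19 and TMEM70 had ratios from 0.969 to 1.46. Of the 33 with none, COX20 alone was. It shares 76.6% of its exon bases with HNRNPU on the opposite strand. Among the same 33, COA3 (42.3% with WNK4 on the opposite strand) had a ratio of 0.973 and UQCC3 (40.8% with LBHD1) of 1.16. The library kit kept strand, but whether counting used it is not given in the sources used here. The part of sharing in these ratios was not tested.

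**Figure D4:**
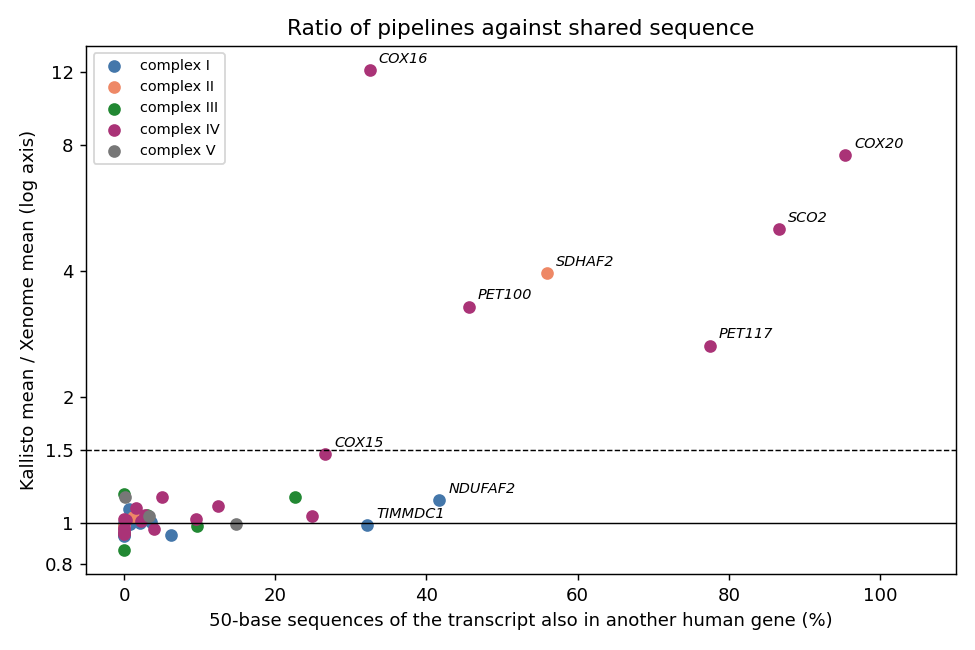
Ratio of the Kallisto to the Xenome mean (log axis) against the percent of 50-base transcript sequences that also occur in another human gene, 1 point per factor. The solid line is equality and the dashed line 1.5-fold. The 6 points above it have 32.5% to 95.4%, and NDUFAF2, at 41.7%, lies in that range near equality.

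The genes that share these exons had higher means with Kallisto, apart from TYMP and ENSG00000268400, which were slightly lower. SYNJ2BP-COX16 had a mean of 2.75 with Xenome and 263 with Kallisto, and COX16 and it together had 164 and 2222. ENSG00000256591, over SDHAF2, had 51.7 and 136. KAT14, over PET117, had 886 and 995. HNRNPU, over COX20, had 52110 and 55459. NCAPH2, over SCO2, had 2132 and 2400, and TYMP, on the strand of SCO2, 453 and 445. ENSG00000285932, over COX15, had 0.250 and 134. ENSG00000268400, over PET100, had 3.62 and 3.33. PET100P1 has no Kallisto value. The sum of each of these factors and its partner was also higher with Kallisto, from 1.11-fold for COX20 with HNRNPU to 13.5-fold for COX16.

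The choice of pipeline moved these 6 in the order of levels. By count per kb COX16 was last of 46 with Xenome and 22nd with Kallisto, COX20 moved from 42nd to 20th, SCO2 from 45th to 34th, SDHAF2 from 40th to 27th, PET100 from 25th to 4th and PET117 from 34th to 26th. The complex IV median rose from 645 to 1139 per kb and the complex II median from 436 to 766. The rank correlation of Xenome and Kallisto levels was 0.859 over the 46 factors, a description over genes counted in the same libraries.

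Processed pseudogenes named after a factor in the table were listed for 4 factors, with no value in Kallisto. COX20P1 had a Xenome mean of 138, which is 37.9% of the Xenome mean and 4.98% of the Kallisto mean of COX20, and COX20P2 had 9.02. COX17P1 had 7.77 with Xenome and 14.5 with XenofilteR, beside 2514 for COX17. NDUFAF4P3 had 6.54, NDUFAF4P1 1.57 and COX11P1 0.894, each under 0.4% of its parent gene. The table also holds 2 that only GENCODE names after a factor, PET100P1, with 328 beside 522 for PET100, and NDUFAF2P1, with the 66.5 given above beside 1344 for NDUFAF2.

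RefSeq promoters (GRCh38.p14, 300 bases around the start) were held for 40 of the 46 factors. Letters of known regulators of mitochondrial genes, and separately the TATA box, were searched on both strands. A gene counted where any of its promoters held the letters. GCATGCG, the core of the palindrome read by NRF1, was present in 6 of 40 (15%) against 4.74% of 27305 genes. Those 6 were COX17, COX18, NDUFAF4, NDUFAF5, SDHAF2 and UQCC2. The following 3 are shown as examples, with the match in capitals.
COX17: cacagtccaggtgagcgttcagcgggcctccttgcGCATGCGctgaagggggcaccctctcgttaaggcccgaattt
COX18: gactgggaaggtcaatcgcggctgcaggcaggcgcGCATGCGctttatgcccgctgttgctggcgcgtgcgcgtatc
NDUFAF5: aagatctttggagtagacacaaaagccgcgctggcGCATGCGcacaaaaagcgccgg
They lie at chr3:119677479-119677555 (minus strand), chr4:73069720-73069796 (minus) and chr20:13784991-13785047 (plus). COX17 was the highest factor, while COX18 and NDUFAF5 ranked 38th and 43rd. Of those not shown, UQCC2 ranked 4th, NDUFAF4 26th and SDHAF2 40th. ATGGCGG, within letters read by YY1, was in 9 of 40 (22.5%) against 6.66% of genes. CCGGAAG, read by ETS factors such as GABPA, was in 15 of 40 (37.5%) against 12.2%, among them COX15, COX17, COX20, PET100 and SDHAF2. TATAAA, the TATA box, was in 2 of 40 (COX14 and NUBPL) against 14% of genes. The 27305 genes are all those with a held promoter, expressed or not. The shares among expressed genes alone were not calculated, so these contrasts cannot be called particular to the factors. A match is letters in a window and says nothing of binding.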

How the data were processed

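Each mean is a score, the mean of normalised counts that the authors deposited per gene and pipeline, pooled over 6 libraries. In the Xenome pipeline the authors selected human reads before HISAT2 alignment to GRCh38. For XenofilteR, mouse reads were taken out after alignment to each genome. Both were counted with FeatureCounts, whose strand setting is not given in the sources used here. Kallisto used an index of both transcriptomes. The authors normalised each with DESeq2. Their fold changes, standard errors, statistics and p-values hold the comparison of co-culture with C4-2B alone and were not used. Of 41734 rows, 21 repeats were dropped. The 3 libraries of MC3T3-E1 alone were not used here.

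Lengths, exon sharing and sequences came from GENCODE 44 and mouse sequences from release M21. Of the 46 factors, 36 had the same coordinates there as in the table. The value of 1 read per library was solved from low means with Xenome (0.0281 to 1.53 of a mean). This gave an estimated 4.61 to 251 M human counts per library. The solved values explained 99.7% of the 14274 genes with low means. Solved libraries were not assigned to groups. No test was run, because no value per library is given. The factors and lists were chosen with earlier results of these data known, and the 1.05-fold limit for XenofilteR after the values were seen. All factors are named, with the highest and lowest of each complex and the factors past 1.5-fold in more detail. Scipy 1.17.1, Python 3.11.15, numpy 2.4.6, pandas 2.3.3 and matplotlib 3.10.9 were used. The promoter letters were shortened to cores after longer forms had been searched. Alternatives were other pipelines, lengths, thresholds and filters.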

Additional observations from a re-analysis of the deposited data

How the results depend on the processing

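The count of 6 factors past 1.5-fold stayed at 6 with XenofilteR in place of Xenome. It was also 6 with ratios divided by their median (1.02) and with 2-fold. These changes could not alter it, since no factor ratio lay between 1.46 (COX15) and 2.66 (PET117). Dropping the minimum mean of 50 could not alter it either, since the lowest factor mean with Xenome was 105 (SCO2). With no minimum mean, 22.4% of 17910 genes had Kallisto over 1.5-fold higher. XenofilteR moved no median level by more than counting error. With Kallisto the median moved from 907 to 1066 per kb over all factors, to 766 for complex II and to 1139 for complex IV, and complexes I, III and V stayed within counting error. Length set the scale. Per kb of coding sequence the medians were 2249 (all), 1874 (I), 1474 (II), 3003 (III), 2811 (IV) and 2684 (V), so complex III led in place of complex I. Per kb of all annotated exons, a length added after the data were seen, they were 375, 370, 411, 588, 341 and 702, so complex V led. Among the 18 factors that overlap no listed protein-coding gene they were 802 (all), 1002 (I), 596 (II), 192 (III, 1 factor) and 712 (IV), and complex V kept 1030 (1 factor). No paired analysis was possible because the table has no value per library, and no library could be left out for the same reason. Reads per library could not be solved for any factor, since at least 5.12 combinations of whole reads are expected to fit even the lowest mean.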

Other observations

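The libraries solved from the low means fell into 2 sets by depth. With Xenome the estimated human counts were 251, 225 and 206 M in 3 of them and 18.1, 6.14 and 4.61 M in the other 3. The labels tie none of the 6 to a group. A single count in the shallowest changed a mean by 1.53, and in the deepest by 0.0281.

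Of the 78 nuclear subunit genes, 13 had a Kallisto mean over 1.5-fold the Xenome mean (16.7%), against 9.74% of genes, and 8 of the 13 belong to complex I, which holds 37 of the 78. The share was 21.6% for complex I, 25% for complex II, 22.2% for complex III and 11.8% for complex V, and none of the 11 subunit genes of complex IV was past it. NDUFV2, a subunit of the electron input arm, had 256 with Xenome and 9711 with Kallisto (38.0-fold), and NDUFA7 had 79.3 and 1727 (21.8-fold). SDHA, the flavin subunit on which SDHAF2 and SDHAF4 act, had 1712 and 9734 (5.69-fold). These genes were chosen after their values were seen.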
